A study of Mus musculus with 4 samples.

Results

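The 10 genes described here belong to T-cell costimulation and its relatives, and were followed through the immune cells of mouse liver: the tumour necrosis factor (TNF) receptors Tnfrsf4 (OX40), Tnfrsf9 (4-1BB), Tnfrsf18 (GITR), Cd27, Cd40 and Tnfrsf1b (TNFR2), the CD28 family members Cd28 and Icos, and the ligands Cd40lg and Tnfsf10 (TRAIL). They were chosen by symbol, and all 10 were found once each among the 32285 gene rows of the count tables. Of these 10 genes, 8 encode receptors, while Cd40lg and Tnfsf10 encode ligands of the TNF family.

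CD45+ cells were sorted from liver by flow cytometry and profiled by 5′ single-cell RNA sequencing, with 1 library for each of 4 groups of female C57BL/6 mice. The young group was wild type (WT), about 8 weeks old and untreated. The other 3 groups were WT, miR-146a-/- and miR-146a-/- Ccl5-/- (DKO) mice that received diethylnitrosamine (DEN, 25 mg/kg, intraperitoneally) on day 14, were weaned on day 21 onto a choline-deficient high-fat diet (CDHFD) and were 36 weeks old by the labels. Both deletions are given as genotypes of the whole animal, and how many mice went into a library is unstated. With 1 library per group there is no replicate error. Accordingly, nothing was tested for difference between groups, and the intervals below cover counting error only. Young and treated WT differ in age and in treatment together, and these cannot be told apart.

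A T cell is activated through its antigen receptor together with costimulatory receptors. CD28 binds CD80 and CD86 on antigen-presenting cells, its relative ICOS acts later and mainly through PI3-kinase, the TNF receptors OX40, 4-1BB, GITR and CD27 extend survival and effector function through TRAF adaptors and NF-kappa B, and CD40 ligand on helper T cells activates B cells and myeloid cells through CD40. In the liver, OX40, GITR and TNFR2 are known from regulatory T cells, 4-1BB from antigen-experienced CD8 T cells, and TRAIL from liver-resident type 1 innate lymphoid cells (ILC1).

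The 4 libraries held 10985 cells in young WT, 9120 in treated WT, 8393 in miR-146a-/- and 10623 in DKO, with 90756272, 103165826, 88706063 and 103147246 unique molecular identifiers (UMIs). After limits on features and mitochondrial UMIs, 10283, 8329, 7824 and 9850 cells were kept, with a median of 6782 to 8210 UMIs. Any pair of libraries shared 109 to 150 cell barcodes. Ccl5, deleted in DKO, was at 6174 CPM (UMIs of the gene per 10 to the power of 6 UMIs) in young WT, 12544 in treated WT, 12496 in miR-146a-/- and 65.4 in DKO. The DKO library was thus the low one, and 3 of its 9850 cells had 50 or more Ccl5 UMIs. Cells were placed in 19 classes by raw UMIs of marker genes, with none of the 10 genes among the markers. The markers of each class were detected in that class in each library that had cells of it, except Clec4f, which had 0 UMIs in the C1q+ macrophages of miR-146a-/-.

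A level below is the CPM of a gene in the summed UMIs of the cells of 1 class in 1 library, with its exact 95% Poisson interval in parentheses. Orders of classes use classes with at least 50 cells in a library and go by the median over the libraries.

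**Figure D1:**
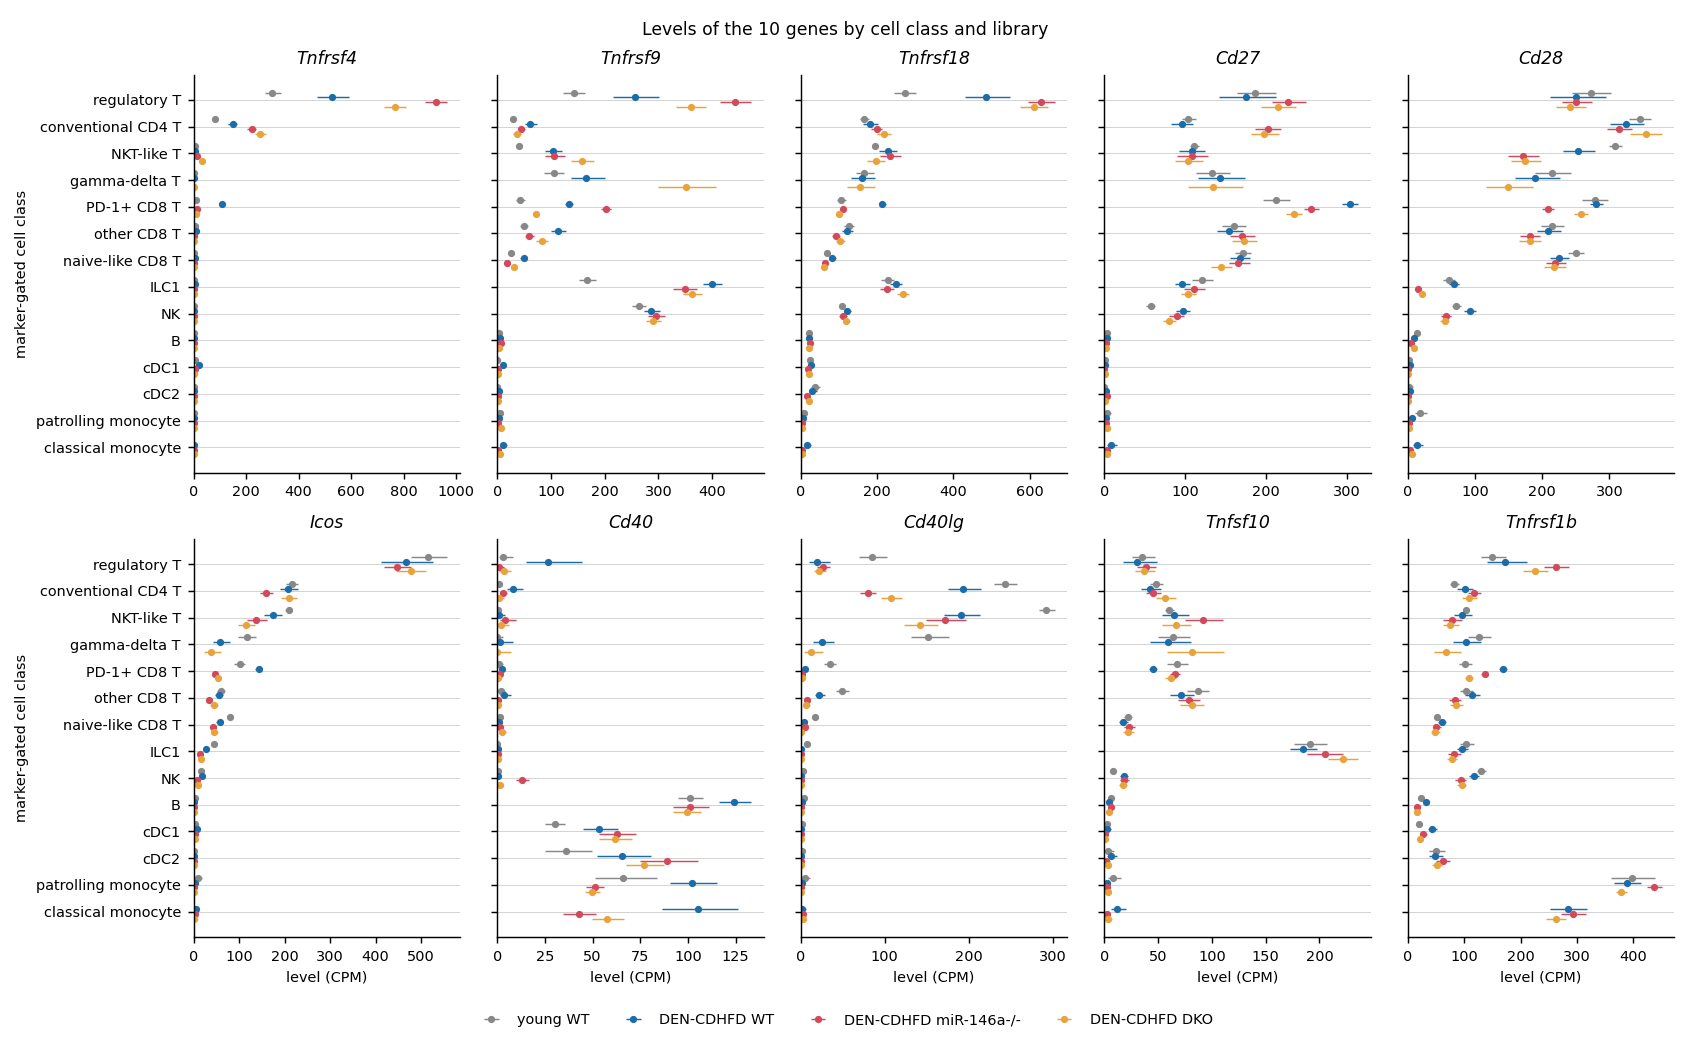
Levels (CPM, horizontal axes, each starting at 0) of the 10 genes in 14 marker-gated cell classes (vertical axis), with 1 point per library and exact 95% Poisson intervals, for classes with at least 50 cells. Tnfrsf4, Tnfrsf18 and Icos peaked in regulatory T cells, Tnfsf10 in ILC1, Cd40 in B and myeloid cells, and Tnfrsf1b in monocytes.

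The comparisons address what age with treatment, loss of miR-146a and added loss of Ccl5 change. They were made within 6 classes, chosen after the values were seen: PD-1+ CD8 T cells, regulatory T cells, NKT-like T cells, conventional CD4 T cells, ILC1 and patrolling monocytes. A gene was counted as changed when its ratio passed 1.5-fold and it had 50 CPM or more, and 20 UMIs or more, in at least 1 library of the pair. The median log2 ratio of all genes that met this minimum lay between -0.05 and 0.06 in each comparison. Treated WT belongs to the first 2 comparisons and miR-146a-/- to the last 2, so opposite directions in comparisons that share a library are not separate observations.

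From young to treated WT, 15 of the 40 gene and class pairs that met the minimum passed the fold, 12 higher and 3 lower. In PD-1+ CD8 T cells these were 5 of 8 genes (Tnfrsf4, Tnfrsf9, Tnfrsf18 and Tnfrsf1b higher, Tnfsf10 lower), against 12.3% of all genes tested. Young and treated WT cells of this class also differed in Pdcd1 UMIs per cell, as given further on. The part of that difference in the count was not tested. The Tnfsf10 ratio, -0.59, fell below the fold without Trbv1 cells (-0.56) or without the leading segments, both given further on. Without Trbv1 cells the Tnfrsf4 levels, 7.86 CPM in young WT and 38.2 in treated WT, are under the minimum, so Tnfrsf4 would not be counted either. Regulatory T cells had 4 of 8 (Tnfrsf4, Tnfrsf9 and Tnfrsf18 higher, Cd40lg lower), against 12.9% of all genes. NKT-like T cells had 2 of 8 (Tnfrsf9 higher, Cd40lg lower), against 5.83%. Conventional CD4 T cells also had 2 of 8, Tnfrsf4 and Tnfrsf9, both higher, against 4.97%. ILC1 had 1 of 6, Tnfrsf9, higher, against 5.77%. Patrolling monocytes had 1 of 2, Cd40, higher, against 12.9%. Tnfrsf9 was thus past the fold in all 5 of these lymphoid classes. The median log2 ratio of the members that met the minimum was 0.62 in PD-1+ CD8 T cells, 0.05 in regulatory T cells, -0.07 in NKT-like T cells, 0.04 in conventional CD4 T cells, 0.04 in ILC1 and 0.29 in patrolling monocytes. In PD-1+ CD8, NKT-like and conventional CD4 T cells Tnfrsf9 met the minimum through treated WT only, so that only a higher value could be counted there. The same holds for Tnfrsf4 in PD-1+ CD8 T cells, and Tnfsf10 there and Cd40lg in regulatory T cells met it through young WT only.

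From treated WT to miR-146a-/-, 11 of 39 pairs passed the fold, 5 higher and 6 lower. PD-1+ CD8 T cells had 4 of 8 (Tnfrsf9 higher, and Tnfrsf4, Tnfrsf18 and Icos lower), against 6.38% of all genes. The Tnfrsf9 ratio there, 0.60, is just past the fold and fell below it without Trbv1 cells (0.40) or without the leading segments given further on. Regulatory T cells had 3 of 7, Tnfrsf4, Tnfrsf9 and Tnfrsf1b, all higher, against 14.1%. NKT-like T cells had 0 of 8, against 6.98%. Conventional CD4 T cells had 2 of 8 (Cd27 higher, Cd40lg lower), against 9.89%. ILC1 had 1 of 6, Cd28, lower, against 5.0%, and patrolling monocytes had 1 of 2, Cd40, lower, against 14.7%. Tnfrsf4 thus moved in opposite directions in PD-1+ CD8 T cells and in regulatory T cells. In PD-1+ CD8 T cells without Trbv1 the Tnfrsf4 ratio was -1.54. The levels there, 38.2 CPM in treated WT and 13.1 in miR-146a-/-, are under the minimum, so that ratio would not be counted. The member medians were -0.37, 0.37, -0.07, 0.04, -0.17 and -0.41 in the same order of classes. Tnfrsf4 and Icos in PD-1+ CD8 T cells and Cd28 in ILC1 met the minimum through treated WT only, so that only a lower value could be counted.

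From miR-146a-/- to DKO, 1 of 37 pairs passed the fold, which was Tnfrsf9, lower in PD-1+ CD8 T cells. That was 1 of 7 genes in PD-1+ CD8 T cells, against 3.22% of all genes tested. The counts were 0 of 7 in regulatory T cells (1.91% of all genes), 0 of 8 in NKT-like T cells (4.35%), 0 of 8 in conventional CD4 T cells (2.95%), 0 of 5 in ILC1 (0.974%) and 0 of 2 in patrolling monocytes (0.767%). The member medians were -0.12, -0.08, -0.15, 0.18, 0.06 and -0.12. The count of 1 depends on the settings and was 2 or 3 under some alternatives. The added pairs were Tnfrsf9 in NKT-like T cells (log2 ratio 0.57 here, just under the fold), Cd40lg in conventional CD4 T cells (0.42 here) and, with a 10 CPM minimum, Tnfrsf4 in NKT-like T cells.

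**Figure D2:**
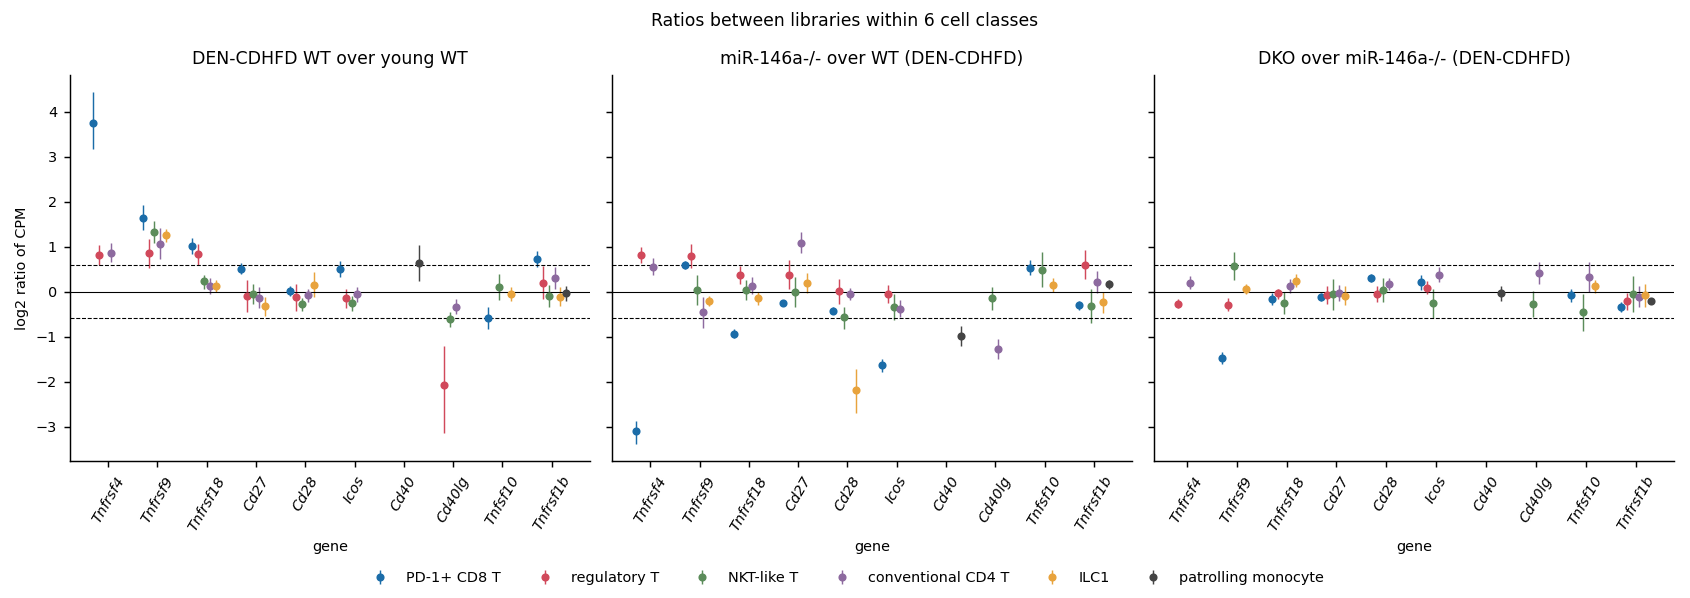
Log2 ratios of CPM (vertical axis) for the 10 genes (horizontal axis) in 3 comparisons between libraries, with 1 color per cell class and 95% counting intervals; pairs under the minimum are left out and dashed lines mark 1.5-fold. The Tnfrsf4 ratio in PD-1+ CD8 T cells is 3.76 in the left panel and -3.11 in the middle panel, and 1 point, Tnfrsf9 in PD-1+ CD8 T cells, is past the fold in the right panel.

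Tnfrsf4 (ENSMUSG00000029075, chr4:156013843-156016612, + strand, mm10) encodes OX40, which prolongs responses of activated T cells. In regulatory T cells its level was 300 CPM (271 to 332) in young WT, 527 (469 to 591) in treated WT, 924 (883 to 967) in miR-146a-/- and 767 (727 to 809) in DKO. The young library was lowest, the miR-146a-/- library highest, and none of the 4 intervals overlapped. Conventional CD4 T cells came next, at 81.9 (74.3 to 90.2), 149 (133 to 167), 221 (205 to 237) and 253 (234 to 274) in the same order. Here too the young library was lowest, while the intervals of miR-146a-/- and DKO touched. The range of Tnfrsf4 over libraries in regulatory T cells lay above that in conventional CD4 T cells, and below these 2 classes the neighbouring ranges overlapped. Mature dendritic cells, with 11 to 47 cells per library, had Tnfrsf4 at 132 to 254 CPM. The regulatory T markers, Foxp3 and Ikzf2, both detected in each library, summed to 1238, 1103, 2017 and 1856 CPM in regulatory T cells, with Ikzf2 the more abundant. They were higher in miR-146a-/- than in treated WT, as Tnfrsf4 was, but lower in treated than in young WT, where Tnfrsf4 was higher. In conventional CD4 T cells Foxp3 was at 0 by the gate and Ikzf2 at 108, 111, 296 and 246 CPM. Their part in the Tnfrsf4 levels was not tested.

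In PD-1+ CD8 T cells the Tnfrsf4 level was 8.05 CPM (5.10 to 12.1) in young WT, 110 (104 to 116) in treated WT, 12.7 (10.7 to 14.9) in miR-146a-/- and 10.3 (8.32 to 12.5) in DKO. Treated WT stood apart from the other 3 libraries, whose values lay within a few CPM of each other. The log2 ratio of treated WT over young WT was 3.76 (3.18 to 4.44), that of miR-146a-/- over treated WT was -3.11 (-3.38 to -2.87), and that of DKO over miR-146a-/- was -0.30 (-0.69 to 0.08). The DKO library was at -3.41 (-3.73 to -3.12) relative to treated WT. The CD8 markers, 2 of 2 detected, summed to 2058, 2366, 2247 and 2258 CPM. Of the regulatory T markers Foxp3 was at 0 by the gate and Ikzf2 at 69.3, 191, 118 and 164 CPM, highest in treated WT. The part of Ikzf2-bearing cells in the Tnfrsf4 level was not tested.

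Shares of cells with a Tnfrsf4 UMI gave the same picture in PD-1+ CD8 T cells. With each cell thinned at random to 2000 UMIs, the share was 0.904% (exact binomial interval 0.187 to 2.62) in young WT, 11% (9.33 to 12.8) in treated WT, 1.69% (1.09 to 2.48) in miR-146a-/- and 1.73% (1.09 to 2.61) in DKO. Without thinning it was 2.69%, 23.6%, 3.57% and 3.62%, at median depths of 6927, 7161, 6812 and 5970 UMIs. In B cells, which should lack Tnfrsf4, the unthinned share was 0.625%, 0.698%, 0.644% and 0.279%, at median depths of 5718, 7005, 7115 and 6840 UMIs. All 4 libraries thus had Tnfrsf4 UMIs in PD-1+ CD8 T cells at a larger share than in B cells, and treated WT by far the most.

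The cells that supplied the Tnfrsf4 UMIs differed between libraries. PD-1+ CD8 T cells gave 35.2% (33.6 to 36.8) of the 3501 Tnfrsf4 UMIs of treated WT, and regulatory T cells gave 8.43% (7.53 to 9.40). In miR-146a-/- the order was the opposite, with 3.46% (2.93 to 4.05) of 4250 Tnfrsf4 UMIs from PD-1+ CD8 T cells and 44.5% (43.0 to 46.0) from regulatory T cells. Regulatory T cells numbered 117, 51, 234 and 230 in young WT, treated WT, miR-146a-/- and DKO, and PD-1+ CD8 T cells 334, 1299, 1485 and 1271. Between 31.2% and 38.1% of Tnfrsf4 UMIs lay in cells that met no gate.

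**Figure D3:**
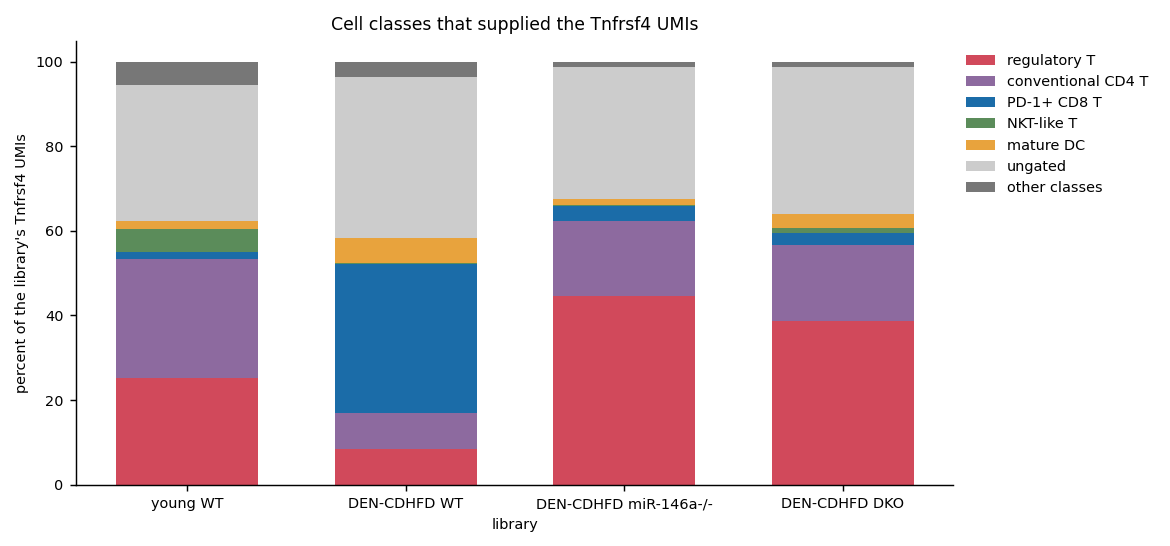
Percent of the Tnfrsf4 UMIs of each library (vertical axis, 4 libraries on the horizontal axis) that came from each marker-gated class, with cells that met no gate in light gray. The PD-1+ CD8 T share is 35.2% in treated WT and 3.46% in miR-146a-/-, while the regulatory T share is 8.43% and 44.5%.

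Tnfrsf18 (ENSMUSG00000041954, chr4:156026164-156028895, + strand) encodes GITR, a costimulatory receptor abundant on regulatory T cells. It lies 9551 bases from Tnfrsf4 on chromosome 4 with 0 coding genes between them. Its level in regulatory T cells was 273 CPM (245 to 303) in young WT, 486 (430 to 548) in treated WT, 630 (596 to 665) in miR-146a-/- and 611 (575 to 648) in DKO. As for Tnfrsf4, the young library was lowest, and the intervals of miR-146a-/- and DKO overlapped. ILC1, NKT-like T cells and conventional CD4 T cells followed in overlapping ranges, from 166 to 267 CPM. Tnfrsf18 in PD-1+ CD8 T cells was at 106 (94.4 to 119), 214 (206 to 223), 112 (106 to 118) and 99.8 (93.5 to 106) in the same order of libraries. Treated WT was again the high library, with a log2 ratio of 1.01 (0.84 to 1.19) over young WT and of -0.94 (-1.04 to -0.84) for miR-146a-/- over treated WT. B cells had Tnfrsf18 at 21.2 to 24.8 CPM.

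Tnfrsf9 (ENSMUSG00000028965, chr4:150914562-150946102, + strand) encodes 4-1BB, which sustains CD8 T-cell and natural killer (NK) cell responses. Its level in ILC1 was 167 CPM (153 to 183) in young WT, 400 (382 to 419) in treated WT, 349 (327 to 371) in miR-146a-/- and 363 (345 to 381) in DKO. Young WT was the low library, with a log2 ratio of 1.26 (1.11 to 1.40) for treated over young WT. NK cells showed less spread, from 264 (251 to 277) in young WT to 296 (280 to 313) in miR-146a-/-. Tnfrsf9 in regulatory T cells followed the Tnfrsf4 order there, at 142 (122 to 164), 256 (215 to 301), 442 (414 to 472) and 360 (333 to 389). ILC1, regulatory T cells, NK cells and gamma-delta T cells led the order of Tnfrsf9 levels, with overlapping ranges.

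Tnfrsf9 in PD-1+ CD8 T cells was the member past the fold between miR-146a-/- and DKO. Smaller differences there, with log2 ratios of 0.30 (0.22 to 0.39) for Cd28 and -0.33 (-0.45 to -0.22) for Tnfrsf1b, were under the fold. Tnfrsf9 in these cells was at 42.7 CPM (35.4 to 51.0) in young WT, 134 (127 to 141) in treated WT, 202 (194 to 211) in miR-146a-/- and 73.0 (67.7 to 78.7) in DKO. The 4 intervals did not overlap, with miR-146a-/- highest and young WT lowest. The log2 ratio of miR-146a-/- over treated WT was 0.60 (0.50 to 0.69), just past the fold, and that of DKO over miR-146a-/- was -1.47 (-1.60 to -1.35). Without the leading segments given further on, the levels were 150 CPM (141 to 158) in miR-146a-/- and 83.7 (76.6 to 91.3) in DKO. That difference is smaller but past the fold. Thinned shares of PD-1+ CD8 T cells with a Tnfrsf9 UMI were 6.33%, 17.2%, 25.2% and 8.12%, and unthinned shares 20.7%, 36.6%, 44.6% and 19.7%. B cells, which should lack Tnfrsf9, had unthinned shares of 1.80% to 2.51%.

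The promoters of these 3 receptors of chromosome 4 are shown because all 3 were higher in treated than in young WT in PD-1+ CD8 and regulatory T cells. They did not move together everywhere: from treated WT to miR-146a-/- in PD-1+ CD8 T cells, Tnfrsf9 was higher and Tnfrsf4 and Tnfrsf18 lower. The sequences are the RefSeq windows on GRCm38.p6, + strand, from 250 bases before to 50 after a start: chr4:150927749-150928048 for the second start of Tnfrsf9, chr4:156013445-156013744 for Tnfrsf4 and chr4:156026072-156026371 for Tnfrsf18. Capitals mark matches to the kappa B consensus motif (10 letters with degenerate positions) and to AP-1 (TGANTCA), searched on both strands.
Tnfrsf9: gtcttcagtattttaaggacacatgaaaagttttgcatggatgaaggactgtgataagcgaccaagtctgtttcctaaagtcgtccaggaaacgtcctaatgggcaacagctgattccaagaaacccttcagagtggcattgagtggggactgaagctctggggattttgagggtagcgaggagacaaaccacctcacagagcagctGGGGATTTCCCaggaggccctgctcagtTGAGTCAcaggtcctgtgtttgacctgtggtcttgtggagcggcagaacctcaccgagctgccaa
Tnfrsf4: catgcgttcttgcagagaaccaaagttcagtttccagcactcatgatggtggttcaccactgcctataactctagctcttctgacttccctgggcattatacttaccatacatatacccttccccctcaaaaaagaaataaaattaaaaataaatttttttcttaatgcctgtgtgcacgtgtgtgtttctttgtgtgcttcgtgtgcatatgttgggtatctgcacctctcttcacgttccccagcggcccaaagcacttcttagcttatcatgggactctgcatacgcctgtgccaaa
Tnfrsf18: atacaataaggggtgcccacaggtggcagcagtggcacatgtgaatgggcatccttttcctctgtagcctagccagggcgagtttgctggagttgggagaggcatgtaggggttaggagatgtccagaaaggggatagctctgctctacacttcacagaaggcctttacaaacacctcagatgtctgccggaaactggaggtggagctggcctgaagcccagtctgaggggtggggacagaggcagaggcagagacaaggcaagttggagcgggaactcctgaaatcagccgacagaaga
The Tnfrsf9 window held 2 overlapping kappa B matches and 1 AP-1 match, and the Tnfrsf4 and Tnfrsf18 windows held 0 of either. Of 32851 promoters of the same length, 4.51% had a kappa B match and 7.81% an AP-1 match. Windows were found for 6 of the 10 genes, 7 windows in all, and the other Tnfrsf9 start and those of Cd27, Tnfsf10 and Tnfrsf1b held 0 matches. Cd28, Icos, Cd40 and Cd40lg had no entry.

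Cd27 (ENSMUSG00000030336, chr6:125232622-125237010, - strand) encodes a receptor for CD70 that supports T-cell survival. PD-1+ CD8 T cells led its order, at 213 CPM (196 to 230) in young WT, 304 (294 to 314) in treated WT, 256 (247 to 265) in miR-146a-/- and 235 (225 to 245) in DKO. Treated WT was highest, but no ratio of Cd27 in that class passed the fold. In conventional CD4 T cells Cd27 was at 104 (95.8 to 114), 95.7 (82.6 to 110), 202 (187 to 218) and 198 (181 to 216). The 2 miR-146a-deficient libraries stood above the 2 WT libraries there, with a log2 ratio of 1.08 (0.85 to 1.32) for miR-146a-/- over treated WT. The 4 naive T markers, all detected, moved in these CD4 cells too, summing to 619, 499, 206 and 251 CPM with Lef1 or Ccr7 on top, and their part was not tested. Naive-like CD8 T cells had Cd27 at 144 to 172 CPM, and B cells at 1.75 to 3.72.

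Tnfrsf1b (ENSMUSG00000028599, chr4:145213463-145246870, - strand) encodes TNFR2, a TNF receptor of immune cells. Patrolling monocytes led its order, at 398 CPM (360 to 438) in young WT, 388 (365 to 413) in treated WT, 437 (424 to 451) in miR-146a-/- and 379 (369 to 389) in DKO. Classical monocytes followed at 262 to 293 CPM in the 3 treated libraries, below the range of patrolling monocytes. Neutrophils came next, at 200 to 243 CPM in miR-146a-/- and DKO. The 25 neutrophils of treated WT, too few for the order, held 95 Tnfrsf1b UMIs of 197791, a level above that of patrolling monocytes. Tnfrsf1b in regulatory T cells was at 150 (130 to 174), 173 (141 to 212), 262 (241 to 286) and 226 (205 to 249). The miR-146a-/- library was highest there, and the intervals of treated WT and DKO overlapped. PD-1+ CD8 T cells had Tnfrsf1b at 101 (90.1 to 114), 168 (161 to 176), 136 (130 to 143) and 108 (102 to 115), with treated WT highest. B cells were the lowest of the classes compared, at 16.4 to 33 CPM. Patrolling monocytes supplied 8.33% of the Tnfrsf1b UMIs of treated WT, 30.7% in miR-146a-/- and 35.6% in DKO, where they numbered 199, 799 and 1262 cells.

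Cd40 (ENSMUSG00000017652, chr2:165055627-165072948, + strand) encodes the receptor through which helper T cells activate B cells and antigen-presenting cells. B cells led its order, at 101 CPM (95 to 108) in young WT, 124 (116 to 133) in treated WT, 101 (91.9 to 111) in miR-146a-/- and 99.7 (92.3 to 107) in DKO. Patrolling monocytes had Cd40 at 66.2 (51.4 to 83.9), 102 (90.4 to 115), 51.3 (46.8 to 56.1) and 49.8 (46.1 to 53.7). Treated WT was the high library in both classes. In patrolling monocytes the log2 ratio of miR-146a-/- over treated WT was -0.99 (-1.21 to -0.77), and in classical monocytes it was -1.29 (-1.70 to -0.89). Other myeloid classes went the other way. In C1q+ macrophages and the dendritic cell classes cDC2 and cDC1, miR-146a-/- was the highest library, at 97.5, 89.2 and 62.6 CPM from 115, 141 and 168 UMIs. Markers of mature dendritic cells, which bear Cd40, also moved in patrolling monocytes. They summed to 0 CPM in young WT, where all 3 (Fscn1, Ccl22 and Ccr7) had 0 UMIs, and to 79.0, 1.29 and 2.40 CPM in the treated libraries, where 3 of 3 were detected and Ccr7 was the most abundant. Their part in the Cd40 level was not tested. Thinned to 2000 UMIs, 4.95% (1.63 to 11.2), 14.1% (9.56 to 19.7), 6.81% (5.16 to 8.79) and 5.91% (4.67 to 7.36) of patrolling monocytes had a Cd40 UMI, and the intervals of young and treated WT overlapped. Unthinned shares were 24.5%, 49.2%, 23.8% and 23.1%, at median depths of 8356, 12374, 9324 and 8502 UMIs, against 0.178% to 0.252% in NK cells, which should lack it. The NK level of 12.9 CPM in miR-146a-/- came from 1 cell that held all 53 Cd40 UMIs. Mature dendritic cells had Cd40 at 235 to 672 CPM in few cells, and 1 of the 23 such cells of miR-146a-/- held 78 of the 290 UMIs.

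Cd28 (ENSMUSG00000026012, chr1:60716800-60773359, + strand) encodes the main costimulatory receptor of naive T cells. It varied little in conventional CD4 T cells, which led its order, at 345 CPM (329 to 362) in young WT, 325 (301 to 351) in treated WT, 315 (296 to 334) in miR-146a-/- and 354 (331 to 378) in DKO. PD-1+ CD8 T cells had Cd28 at 278 (259 to 298), 280 (271 to 290), 208 (200 to 217) and 258 (247 to 268), with miR-146a-/- the low library and no ratio past the fold. In ILC1 Cd28 was at 61.1 (52.6 to 70.5), 68.0 (60.7 to 76.1), 14.9 (10.7 to 20.2) and 20.9 (16.8 to 25.7). The 2 WT libraries stood above the 2 miR-146a-deficient ones there, with a log2 ratio of -2.18 (-2.70 to -1.72) for miR-146a-/- over treated WT. Unthinned shares of ILC1 with a Cd28 UMI were 21.6%, 28.2%, 8.36% and 11%, against 5.15%, 3.21%, 2.79% and 4.18% in B cells. The T-cell markers, 5 of 5 detected in ILC1, summed to 238, 242, 202 and 210 CPM, with Trbc2 the most abundant, and their part in the Cd28 level was not tested. NK cells moved the same way with a smaller ratio, -0.70 (-0.93 to -0.47).

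Icos (ENSMUSG00000026009, chr1:60977927-61000320, + strand) encodes an inducible CD28 relative that acts in helper and regulatory T cells. It lies 204567 bases from Cd28, with Ctla4 between them. Regulatory T cells led its order, at 516 CPM (477 to 558) in young WT, 467 (412 to 527) in treated WT, 448 (419 to 477) in miR-146a-/- and 477 (445 to 510) in DKO. All neighbouring intervals overlapped there, unlike those of Tnfrsf4 in the same cells. In PD-1+ CD8 T cells Icos was at 101 (89.8 to 113), 143 (136 to 150), 46.1 (42.2 to 50.1) and 53.1 (48.6 to 58.0). The 2 WT libraries stood above the 2 miR-146a-deficient ones, with a log2 ratio of -1.63 (-1.78 to -1.49) for miR-146a-/- over treated WT. B cells had Icos at 0.584 to 3.31 CPM.

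Because miR-146a is deleted in 2 groups, its seed site was looked for in the 3′ untranslated regions (UTRs) of the 10 genes. The mature miRNA (RefSeq, GRCm38.p6, chr11:43374435-43374456, - strand) and both matches (GENCODE M21, + strand, chr1:60771065-60771093 for Cd28 and chr1:61000030-61000058 for Icos) are shown with the seed, bases 2 to 8, or the letters that pair with it in capitals.
miR-146a-5p: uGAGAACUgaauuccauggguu
Cd28: gacgacatcaaAGTTCTCaagtacctaca
Icos: tcagtctagacAGTTCTCttcagcctgta
The letters AGTTCTC were present in the UTRs of 2 of the 10 genes, against 11.2% of 20994 coding-gene UTRs, and the Cd28 match is followed by an A. The UTRs of Cd28 and Icos have 3574 and 2606 bases, against a median of 961 over coding genes, so this comparison is not matched for length. Neither Cd28 nor Icos was past the fold upward in miR-146a-/- in any of the 6 classes, and Icos in PD-1+ CD8 T cells and Cd28 in ILC1 were lower. A match of letters is a description of the sequence, and binding was not tested.

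Cd40lg (ENSMUSG00000031132, chrX:57212143-57224042, + strand) encodes the ligand of CD40. NKT-like T cells led its order, at 292 CPM (283 to 302) in young WT, 191 (171 to 213) in treated WT, 172 (149 to 197) in miR-146a-/- and 142 (123 to 163) in DKO. Conventional CD4 T cells had Cd40lg at 243 (230 to 257), 193 (175 to 214), 80.1 (70.9 to 90.1) and 107 (95.1 to 121). Young WT was the high library in both classes, and in conventional CD4 T cells the log2 ratio of miR-146a-/- over treated WT was -1.27 (-1.50 to -1.05), in cells whose naive markers fell as given above. Over all kept cells Cd40lg was at 104, 22.9, 14.1 and 11.9 CPM. NKT-like T cells, the class that gave 42.5% of the Cd40lg UMIs of young WT, numbered 1591 there and 175, 131 and 162 in the other libraries. Unthinned shares of conventional CD4 T cells with a Cd40lg UMI were 70.6%, 62.9%, 28.2% and 40.8%, against 0% to 1.80% in B cells. The share of 0% in the B cells of DKO rests on 0 of 718 cells.

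Tnfsf10 (ENSMUSG00000039304, chr3:27317028-27342427, + strand) encodes TRAIL, a ligand that triggers cell death through its receptor. ILC1 led its order in every library, at 191 CPM (176 to 207) in young WT, 185 (173 to 198) in treated WT, 205 (188 to 222) in miR-146a-/- and 222 (208 to 236) in DKO. No comparison of Tnfsf10 in ILC1 passed the fold, and the ILC1 range lay above that of every other class. NK cells, gated from ILC1 by Eomes and Itga2, had Tnfsf10 at 8.26 to 18.2 CPM. In PD-1+ CD8 T cells Tnfsf10 was at 67.9 (58.7 to 78.1), 45.1 (41.2 to 49.2), 65.4 (60.8 to 70.2) and 61.7 (56.8 to 66.9), so that treated WT was the low library. That is the reverse of Tnfrsf4, Tnfrsf18 and Tnfrsf1b in the same cells. In young WT the Tnfsf10 level was 112 CPM (90.6 to 137) with Trbv14, its leading segment (given below), and 47.8 (38.6 to 58.6) without. Treated WT cells without Trbv17 had 44.6 (40.0 to 49.6), so young and treated WT differed by less than the fold without these segments. Unthinned shares of ILC1 with a Tnfsf10 UMI were 64.0% to 77.3%, against 2.79% to 4.29% in B cells.

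The high Tnfrsf4 level of treated WT PD-1+ CD8 T cells was concentrated in cells with the T-cell receptor segment Trbv1. This segment, and Trav16, Trav13-3 and the others named below, were picked after their values were seen, from 163 Trav and Trbv gene rows. In treated WT 338 PD-1+ CD8 T cells, 26.0% of the class, had at least 2 Trbv1 UMIs, and 943 had none. Tnfrsf4 was at 283 CPM (265 to 302) in the first group and 38.2 (34.0 to 42.8) in the second, and 926 of the 1231 Tnfrsf4 UMIs lay in the first. Unthinned, 61.8% (56.4 to 67.0) of cells in the first group and 9.86% (8.03 to 11.9) in the second had a Tnfrsf4 UMI, at median depths of 8192 and 6766 UMIs. In the same library 0.140% of B cells had 2 or more Trbv1 UMIs. The Trbv1 cells also shared alpha-chain segments: 88.8% (84.9 to 91.9) had a Trav16 UMI and 79.9% (75.2 to 84.0) a Trav13-3 UMI, against 2.65% and 0.106% of cells without Trbv1.

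Other members differed between these groups in treated WT. Tnfrsf18 was at 319 CPM (300 to 339) with Trbv1 and 170 (161 to 179) without, and Icos at 237 (221 to 255) and 104 (96.5 to 111). Tnfrsf9 went the other way, at 74.3 (65.2 to 84.2) with Trbv1 and 157 (148 to 166) without. Cd28 did not differ, at 281 (263 to 300) and 278 (267 to 290). Ctla4, of the inhibitory CD28 family, was at 804 (774 to 835) and 488 (472 to 504), and Ikzf2, a regulatory T marker, at 314 (295 to 334) and 140 (132 to 149).

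Trbv1 cells of the other libraries did not have this Tnfrsf4 level. It was 10.7 CPM (2.20 to 31.2) in 28 such cells of young WT, 0 (up to 10.6) in 48 cells of miR-146a-/- and 9.24 (3.72 to 19.0) in 104 cells of DKO. Trav13-3 was seen in 0 of the 28 cells of young WT, 0 of the 48 of miR-146a-/- and 1 of the 104 of DKO. In PD-1+ CD8 T cells without a Trbv1 UMI, the log2 ratio of Tnfrsf4 for miR-146a-/- over treated WT was -1.54 (-1.84 to -1.25), that for treated over young WT was 2.27 (1.63 to 3.01), and the Tnfrsf18 and Icos ratios for miR-146a-/- over treated WT were -0.60 (-0.71 to -0.49) and -1.17 (-1.34 to -1.01). All of these stayed past the fold, Tnfrsf18 only just, with an interval that reached under it. The Tnfrsf4 levels behind them, 7.86 CPM in young WT, 38.2 in treated WT and 13.1 in miR-146a-/-, are under the minimum of 50 CPM, so neither Tnfrsf4 ratio would be counted without Trbv1 cells. The Tnfrsf9 ratio of miR-146a-/- over treated WT went from 0.60 to 0.40 (0.30 to 0.51), below the fold. The Tnfsf10 ratio of treated over young WT went from -0.59 to -0.56 (-0.82 to -0.29), also below. The Tnfrsf1b ratio of the same libraries went from 0.73 to 0.61 (0.42 to 0.81), just past the fold. The Icos ratio of treated over young WT went from 0.50 to 0.09 (-0.12 to 0.30).

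**Figure D4:**
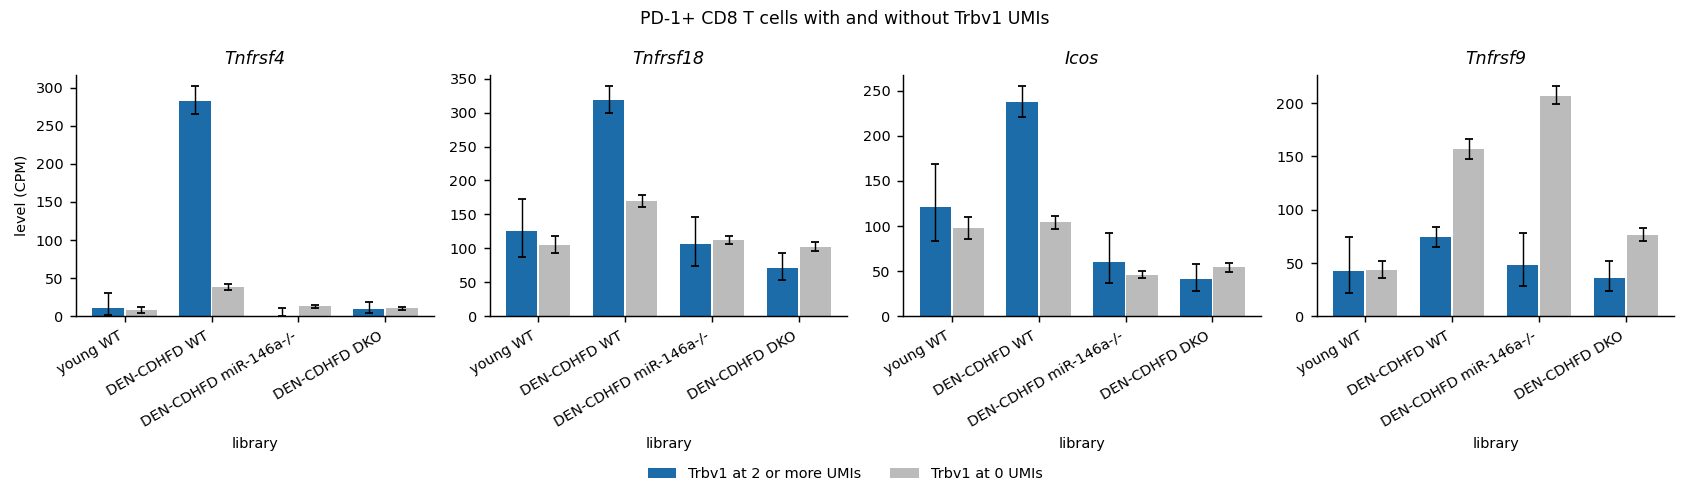
Levels (CPM, vertical axes from 0) of Tnfrsf4, Tnfrsf18, Icos and Tnfrsf9 in PD-1+ CD8 T cells of the 4 libraries (horizontal axes), split by Trbv1 UMIs, with exact 95% Poisson intervals. In treated WT, Tnfrsf4 is at 283 CPM with Trbv1 and 38.2 without, a difference not seen in the other 3 libraries.

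Each library had its own leading Trbv segment in PD-1+ CD8 T cells, with 2 or more UMIs in 30.2% (Trbv14, young WT), 33.5% (Trbv17, treated WT), 31.6% (Trbv13-3, miR-146a-/-) and 33.9% (Trbv16, DKO) of the class. In miR-146a-/- Tnfrsf9 was at 326 CPM (307 to 346) in cells with Trbv13-3 and 150 (141 to 158) in cells without it. Cd28 went the other way there, at 147 (135 to 160) with Trbv13-3 and 235 (225 to 246) without. In DKO Tnfrsf9 was at 54.6 (46.9 to 63.2) with Trbv16 and 83.7 (76.6 to 91.3) without. The Tnfrsf9 level of miR-146a-/- cells without Trbv13-3, 150 CPM, was above that of either DKO group. It was under 1.5-fold of the 132 CPM (124 to 140) in treated WT cells without Trbv17, so the call of Tnfrsf9 from treated WT to miR-146a-/- was lost when the leading segments were left out. The Tnfsf10 call from young to treated WT was lost in the same way, at 47.8 CPM in young WT without Trbv14 and 44.6 in treated WT without Trbv17. In young WT, Tnfsf10 was at 112 CPM with Trbv14, Tnfrsf9 at 68.8 with it and 31.4 without, and Cd28 at 161 with it and 322 without. Whether V segments stand for the descent of cells or for the mice behind a library was not tested.

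The Tnfrsf4 cells of treated WT overlapped with the Trbv1 cells when depth was set equal. Among PD-1+ CD8 T cells thinned to 2000 UMIs, Trbv1 was found in 71.8% (63.7 to 79.1) of the 142 cells with a Tnfrsf4 UMI and 19.6% (17.4 to 22.0) of the 1151 without, so the differences that follow are not separate from the Trbv1 split. Tnfrsf18 was found in 56.3% (47.8 to 64.6) and 28.2% (25.7 to 30.9) of these cells. The shares for Icos were 39.4% (31.3 to 48.0) and 20.9% (18.5 to 23.3). Those for Tnfrsf9 overlapped, at 18.3% (12.3 to 25.7) and 17.1% (15.0 to 19.4).

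Members also varied with the Pdcd1 UMIs of the cell, in bins of 1, 2 to 3, 4 to 7 and 8 or more UMIs. In treated WT Tnfrsf4 was at 38.0, 53.3, 115 and 187 CPM over these bins, with 195, 328, 479 and 297 cells. In miR-146a-/- Tnfrsf9 was at 104, 168, 243 and 291 CPM, with 329, 427, 493 and 236 cells. In DKO Tnfrsf4 was at 6.05, 8.70, 10.6 and 20 CPM and Tnfrsf9 at 54.4, 54.5, 84.5 and 121. Tnfrsf4 in miR-146a-/-, at 9.36, 7.60, 6.56 and 34.3 CPM, and Tnfrsf9 in treated WT, at 83.3, 139, 125 and 165, did not rise at every step but were highest in the last bin. In treated WT the bins overlap with the Trbv1 split, since Pdcd1 was at 767 CPM (738 to 798) in cells with Trbv1 and 560 (543 to 577) in cells without, so the bins there are not a separate observation. Icos rose from 80.0 to 185 CPM over the bins of treated WT and was at 43.5 and 62.6 CPM in the lowest and highest bins of miR-146a-/-. Cd28 showed no such rise, at 283 and 272 CPM in the lowest and highest bins of treated WT. Within every bin, Tnfrsf4 was higher in treated WT than in miR-146a-/- and Tnfrsf9 higher in miR-146a-/- than in DKO. In miR-146a-/-, cells with Trbv13-3 held 1131 of the 2350 Tnfrsf9 UMIs of the class, and the bins were not split by that segment. Young WT had 190, 101, 37 and 6 cells in the bins, lower in Pdcd1 than treated WT. At 1 UMI, young and treated WT had Tnfrsf18 at 100 and 130 CPM, Tnfrsf1b at 98.0 and 101, and Tnfsf10 at 57.7 and 52.6. These were under the fold there. Tnfrsf4, at 6.61 and 38.0, and Tnfrsf9, at 30.7 and 83.3, were past it. At 2 to 3 UMIs Tnfrsf18, at 112 and 177, Tnfrsf1b, at 96.5 and 146, and Tnfsf10, at 82.2 and 46.1, differed more. The 6 young WT cells with 8 or more Pdcd1 UMIs had Tnfrsf4 at 150 CPM (60.3 to 309), a bin too small to read. The median depth of cells also rose with the bin, from 6287 to 8887 UMIs in treated WT.

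**Figure D5:**
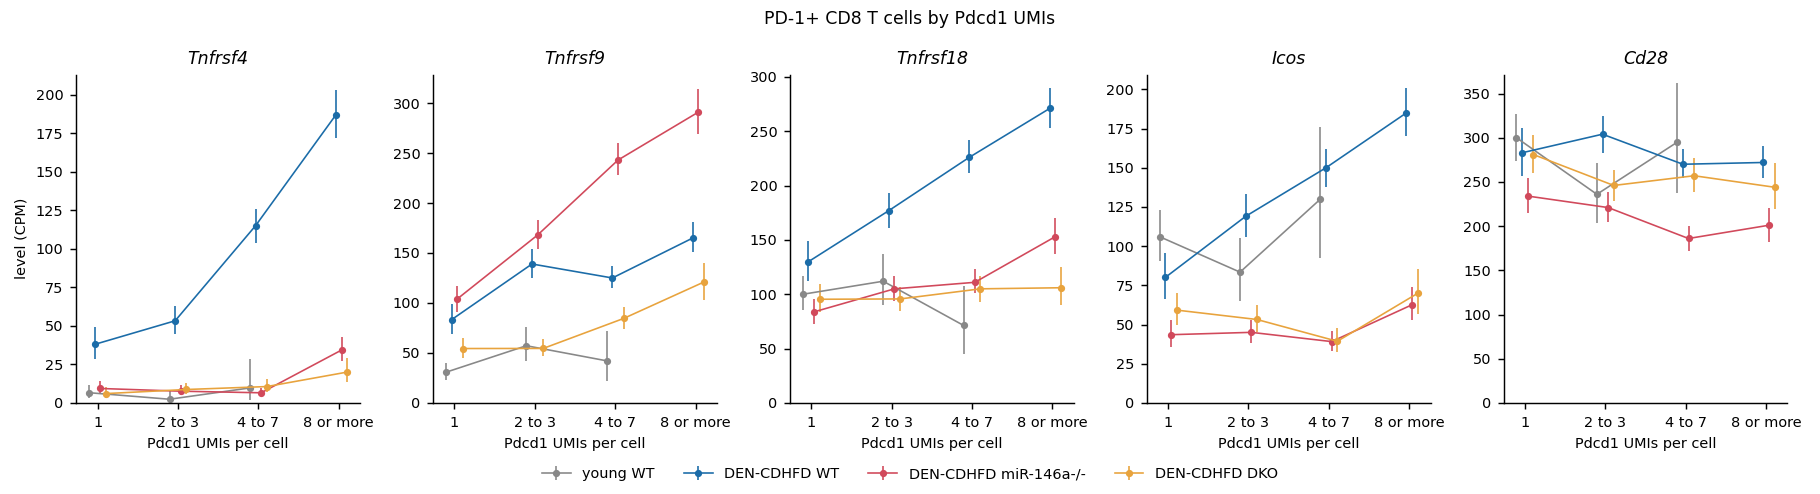
Levels (CPM, vertical axes from 0) of 5 genes in PD-1+ CD8 T cells by the Pdcd1 UMIs of the cell (horizontal axes), with 1 line per library and exact 95% Poisson intervals, for bins of at least 20 cells. Tnfrsf4 reaches 187 CPM in treated WT and Tnfrsf9 reaches 291 CPM in miR-146a-/- in the highest bin.

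The wider pathway was read from a list of 31 genes: 9 ligands, 10 further receptors, 3 inhibitory members of the CD28 family and 9 adaptors and NF-kappa B genes. In PD-1+ CD8 T cells 3 of the 11 that met the minimum passed the fold from young to treated WT (Ctla4 and Pdcd1 higher, Cd226 lower), against 12.3% of all genes, and 2 of 10 from treated WT to miR-146a-/- (Ctla4 and Nfkb2 lower), against 6.38%. Pdcd1 encodes PD-1, and the gate of this class requires its UMIs, so its level there depends on the gate. Ctla4 was at 128, 582, 132 and 187 CPM in young WT, treated WT, miR-146a-/- and DKO, high in treated WT as Tnfrsf4 was. Regulatory T cells had 6 of 13 past the fold from young to treated WT, against 12.9%, and 4 of 14 from treated WT to miR-146a-/-, against 14.1%. Conventional CD4 T cells had 5 of 13 in each of these comparisons, against 4.97% and 9.89%. NKT-like T cells had 1 of 11 and 2 of 11, against 5.83% and 6.98%, and the first of these is near the share of all genes. ILC1 had 4 of 10 and 2 of 10, against 5.77% and 5.0%. Patrolling monocytes had 3 of 10 (Cd86, Tnf and Fas higher), against 12.9%, and 2 of 10 (Cd86 and Tnf lower), against 14.7%, the latter near the share of all genes. Cd86, a ligand of CD28, was at 193 CPM in treated WT patrolling monocytes and 63.4 in miR-146a-/-, the direction of Cd40 in the same cells. The markers of mature dendritic cells moved in these cells too, as given for Cd40, and their part in the Cd86 and Tnf levels was not tested. From miR-146a-/- to DKO the list had 1 call in the 6 classes, Tnf, 1 of 11 genes in NKT-like T cells, lower, against 4.35%.

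Across 64 sums of a class in a library with at least 50 cells, each member was set against 6667 genes by Pearson correlation of log2(CPM + 1). The points share libraries and depth, so the values are descriptions. Tnfrsf4 was most like Ncmap (r = 0.871), Itgb8 (0.867) and Nrn1 (0.864), Tnfrsf9 most like Mmd (0.938), AW112010 (0.933) and Sytl2 (0.931), and Tnfrsf18 most like Ndfip1 (0.958), Sigirr (0.940) and Sept7 (0.928). Cd27 was most like Trbc2 (0.988), Trbc1 (0.976) and Zap70 (0.974), Cd28 most like Lat (0.962), Thy1 (0.949) and Abhd8 (0.930), and Icos most like Acsbg1 (0.932), Trac (0.929) and Itpkb (0.924). Cd40 was most like Ifi30 (0.905), Gm6377 (0.905) and H3f3a (0.894), and Tnfrsf1b most like Ggh (0.867), Nfil3 (0.855) and Rap1b (0.854). The ligands were most like Il4 (0.874), Ccr4 (0.838) and Trbv13-2 (0.833) for Cd40lg, and Abcb9 (0.945), Cxcr6 (0.941) and Aak1 (0.940) for Tnfsf10. Among the members themselves the highest value was that of Cd27 with Cd28 (0.898), and the neighbours Tnfrsf4 and Tnfrsf18 reached 0.631. Cd40 had values below 0 with all 9 others, from -0.794 with Cd27 to -0.011, almost no correlation, with Tnfrsf1b.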

How the data were processed

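The deposited files hold raw UMI count matrices that the authors made with Cell Ranger 7.0.1 (mm10), per the file headers. The methods of the paper name an earlier version of Cell Ranger, and the headers were followed here. Kept cells had 600 to 6000 features and no more than 5% of UMIs from mitochondrial genes, and doublets were limited only by the upper feature limit. Classes are gates on raw UMIs of marker genes, with thresholds set from marker counts. CPM use exact Poisson intervals, shares exact (Clopper-Pearson) binomial intervals, and log2 ratios a prior of 0.5 counts. Cells were thinned to 2000 UMIs with a fixed seed, within each class. Python 3.11.15, numpy 2.4.6, scipy 1.17.1, pandas 2.3.3, matplotlib 3.10.9 and, for TMM factors, R 4.3.3 with edgeR 4.0.16 were used, and the ratios were tested on simulated data. Named genes are the 10 members, a fixed pathway list, the class markers, Ccl5 and, for each member, the 3 genes most like it. The members and lists were chosen with earlier results of these data known. The 6 classes compared, the Trbv1, lead-segment, Pdcd1 and Tnfrsf4 splits, the V segments named, and which results lead were chosen after the values were seen. Alternatives for the filters, gates, scaling, thinning and thresholds were tried.

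Limits: each group is 1 library, so differences between groups and between libraries cannot be told apart. Gates leave 25.7% to 38.2% of kept cells in no class, and small classes rest on few cells. UMIs of free RNA were not removed. Thinned shares fall with the depth chosen. Protein was not measured in these files.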

Additional observations from a re-analysis of the deposited data

How the results depend on the processing

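No ratio of members between libraries changed direction past the fold under the alternatives run, which covered 116 ratios, or 23 for those without Trbv1 cells and with Pdcd1 at 2 or more UMIs. Of the 27 past 1.5-fold, 26 stayed past it with a mitochondrial limit of 10% or a prior of 5 counts, 25 with at least 200 features and no upper limit or with TMM factors, and 23 with gates allowing no UMI of another lineage or with means over cells. Newly past it were 0, 0, 0, 2, 5 and 4 ratios under these settings in the order given. The alternatives without Trbv1 cells, without cycling cells (no Mki67 or Top2a UMI) and with Pdcd1 at 2 or more UMIs were chosen after seeing the data, and kept 8 of 10, 24 of 27 and 10 of 10, with 0, 6 and 1 newly past it. These counts go by the fold only, and 2 of the 8 are Tnfrsf4 ratios whose levels without Trbv1 cells are under 50 CPM. The Tnfrsf4 log2 ratio of miR-146a-/- over treated WT in PD-1+ CD8 T cells became -1.54 without Trbv1 cells and -2.66 without cycling cells, and that of Icos -1.17 without Trbv1 cells. The Tnfrsf9 ratio in ILC1 became 1.41 under strict gates and 1.43 with means over cells, and the Cd40 ratio of patrolling monocytes -1.56 with means. A fold of 2 left 7 of the 15 calls from young to treated WT and 5 of the 11 from treated WT to miR-146a-/-, while the count from miR-146a-/- to DKO became 2 with means or TMM factors (adding Tnfrsf9 in NKT-like T cells), 2 with a 10 CPM minimum (Tnfrsf4 there) and 3 without cycling cells (Tnfrsf9 there and Cd40lg in conventional CD4 T cells). Tnfrsf4 in PD-1+ CD8 T cells of treated WT was at 121 CPM under strict gates and 100 with means. Tnfrsf4 in regulatory T cells of miR-146a-/- was at 874 with at least 200 features and no upper limit, and Tnfrsf9 in PD-1+ CD8 T cells of miR-146a-/- at 188 with means. Shares of PD-1+ CD8 T cells with a Tnfrsf4 UMI were 2.69%, 23.6%, 3.57% and 3.62% without thinning and 7.08%, 0.606% and 0.629% for the 3 treated libraries at 1000 UMIs, where fewer UMIs per cell lower every share. Strict gates lowered the Tnfrsf4 UMI share of PD-1+ CD8 T cells in treated WT to 26.8% and that of regulatory T cells in miR-146a-/- to 32.9%, since fewer cells pass them. The cause of the other shifts was not tested.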
